A study of Mus musculus with 8 samples.

Results

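Cadherins are calcium-dependent adhesion proteins of the plasma membrane. Cells that carry the same member bind each other through its outermost repeats, and the cytoplasmic tail of most members binds catenins, which connect the contact to actin. In the liver they are known from the lateral contacts of epithelial cells, from the junctions of the vascular lining and from the contacts of mesenchymal cells. The family members described here are *Cdh1* (E-cadherin), *Cdh2* (N-cadherin), *Cdh3* (P-cadherin), *Cdh5* (VE-cadherin), *Cdh6* (K-cadherin), *Cdh11* (OB-cadherin), *Cdh13* (T-cadherin) and *Cdh17* (LI-cadherin). They were taken by name as 8 of the 46609 rows of a count table that held 46517 genes and 92 spike-ins. The 8 genes were chosen with their levels in these cells already known, so their levels by cell class, group and cluster are descriptions with no test. Of the members' values the comparison of the sexes alone is given with a test.

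Adult male and female mice on a C57BL6 background gave the liver cells. They were wild type or heterozygous for the fluorescent reporters *Pdgfrb*-GFP, *Pdgfra*-H2bGFP, *Cspg4*-dsRED, *Acta2*-GFP or *Cldn5*-GFP or combinations of them, with no treatment. Single cells were sorted into plates and sequenced by Smart-seq2. The sort took endothelial cells on antibodies against CD31 and/or VE-cadherin itself or on the *Cldn5*-GFP reporter, Kupffer cells on CD68, cholangiocytes on EPCAM and mesenchymal cells on reporters driven by mesenchymal promoters and on antibodies against PDGFRα, while hepatocytes were taken without enrichment. *Cdh5* codes for one of these sort antigens, and the part of the gate in its endothelial and Kupffer levels was not tested. The cell numbers reflect the sort. The 3491 cells formed 8 pools, a male and a female one for each of 4 classes: mesenchymal (998 male and 339 female cells), endothelial (655 and 451), immune (255 and 396) and epithelial (358 and 39). The shallowest cell held 47063 counts, the median cell 228708 and the deepest 1128421. All 22 plates held cells of 1 sex, and the 339 female mesenchymal cells came from 1 plate. Levels are counts of a gene scaled to the total of the summed cells (CPM), and levels of different genes were compared only as CPM per kilobase of exon. A cell was called positive at 20 or more counts, the detection limit of the study's methods. Marker genes were looked up in 4 large groups. All 8 Kupffer markers stood at 10 CPM or more in Kupffer cells, and all 6 mural markers in arterial SMC. So did all 10 endothelial markers in sinusoidal endothelial cells and all 6 hepatocyte markers in hepatocytes. The study named its clusters by canonical markers, so this is no independent check of the labels.

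The 8 genes are not all classical cadherins, and their sequence showed it. Classical cadherins are made as precursors, and the mature protein starts after a furin-type cleavage site. Type I members then carry a single tryptophan that docks into the partner cadherin, and type II members carry a pair of them. The first 30 bases after that cleavage site are given for 6 members, from GENCODE vM21 transcripts on GRCm38, 5′ to 3′, with in-frame TGG codons for tryptophan in capitals. They are shown because they separate the members into the kinds used below.
Cdh1: gacTGGgtcatccctcccatcagctgcccc
Cdh3: gagTGGgtgatgccaccaatattcgtcccc
Cdh5: gacTGGattTGGaatcaaatgcacatcgat
Cdh6: agtTGGatgTGGaatcagttcttcctcctg
Cdh11: ggcTGGgtcTGGaaccaattctttgtgata
Cdh13: tccattgtggtgtcccccatcttgatccca

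*Cdh1* and *Cdh3* held 1 such codon, at position 2 of the mature protein, and *Cdh5*, *Cdh6* and *Cdh11* held 2, at positions 2 and 4. *Cdh13*, which is anchored by a lipid and has no cytoplasmic tail, held none among its first 10 codons. The *Cdh1* and *Cdh3* stretches shared 20 of 30 bases and those of *Cdh6* and *Cdh11* shared 19. The stretches lie in coding exons at chr8:106653582-106653611 for *Cdh1*, chr8:106536618-106536647 for *Cdh3*, chr8:104113034-104113063 for *Cdh5* and chr8:118757416-118757445 for *Cdh13*, all on the plus strand. On the minus strand lie those of *Cdh6*, at chr15:13091689-13091718, and *Cdh11*, at chr8:102679651-102679680. *Cdh17* held no such cleavage site. *Cdh2* held one, and its stretch is not shown. *Cdh3* and *Cdh1* are neighbours, with 46053 bases between them. The longest run of bases shared by any of the 28 pairs of members was 26, against reads of 50 bases, so a whole read could not match a pair of members exactly.

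The members were spread unevenly over the 4 classes. *Cdh1*, the adhesion protein of epithelia, stood at 363 CPM in male cells and 744 CPM in female epithelial cells, and at 14.2 or less in the other pools. *Cdh5*, the adhesion protein of endothelial junctions, stood at 504 and 411 CPM in male and female endothelial cells and at 110 and 327 CPM in immune cells. *Cdh13* reached 726 and 1347 CPM in endothelial cells and 81.6 and 77.1 CPM in mesenchymal cells. *Cdh2*, *Cdh3*, *Cdh6* and *Cdh11* were shared out within the mesenchymal class, with *Cdh2* at 82.2 and 43.9 CPM there. *Cdh3* and *Cdh6* were also high in epithelial cells, *Cdh3* at 62.5 and 196 CPM and *Cdh6* at 65.6 and 160 CPM. *Cdh17*, known from intestinal epithelium, was close to the limit of detection. It had 98 counts over all 3491 cells, its highest level in any of the 30 multilevel clusters was 0.33 CPM, and 0 cells reached 20 counts, which allows a share of up to 0.0859%.

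**Figure D1:**
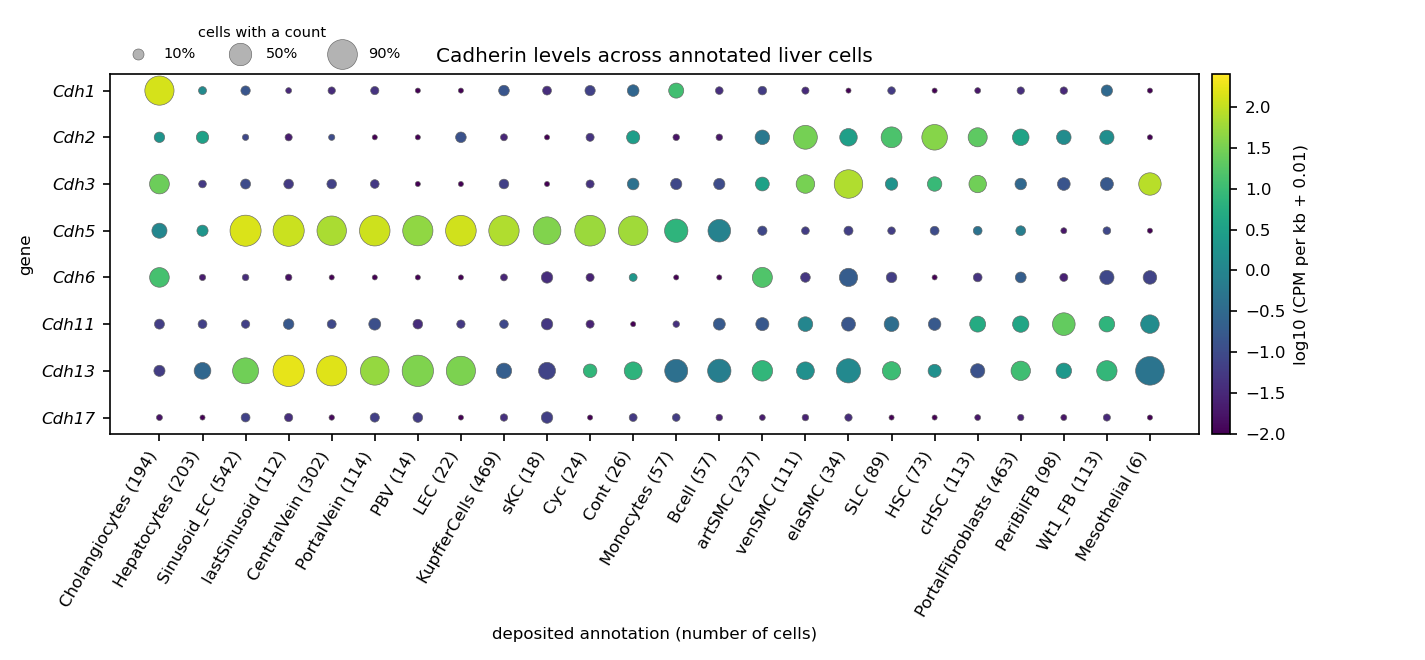
The plot gives each of the 8 genes (rows) in each of the 24 annotated cell groups (columns, with cell numbers), with colour for the level as log10 of CPM per kilobase plus 0.01 and dot size for the share of cells with at least 1 count. *Cdh5* fills the endothelial and Kupffer columns, *Cdh13* the endothelial ones, and *Cdh2*, *Cdh3*, *Cdh6* and *Cdh11* lie in different mesenchymal columns, while the *Cdh17* row stays near the bottom of the scale.

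Among the type I members, *Cdh1* was high in cholangiocytes, the cells that line the bile ducts. It stood at 590 CPM in 157 male cells and 763 CPM in 37 female cholangiocytes, and 131 of the 194 cells (67.5%) were positive. The lowest of 6 plates with at least 5 cholangiocytes was at 209 CPM, the median at 584 and the highest at 828. Hepatocytes were at 5.66 CPM, and a single one of 203 cells gave 77.9% of those counts. Without it the level was 1.26 CPM, and 8 hepatocytes had any count (3.94%, 95% exact interval 1.72 to 7.62). One plate held 155 of the 203 hepatocytes. The 4 plates with at least 5 hepatocytes ranged from 0 to 75.1 CPM, with a median of 0.095. The log2 ratio of cholangiocytes to hepatocytes was 6.62, and 6.58 among male cells alone. It could not be given for female cells, which included 2 hepatocytes. Of the 5 cholangiocyte markers 2 reached 10 CPM in hepatocytes, with 44.7 CPM for all 5 together, against 7558 CPM in cholangiocytes. Intervals on shares of cells cover counting error only, and reads of this protocol carry no molecular identifiers.

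*Cdh1* was also found in a few immune cells. Cells annotated as monocytes stood at 53.4 CPM, and 8 of 57 cells were positive, spread over 4 plates. All 8 were male, as were 55 of the 57 cells. The group also held both plasmacytoid dendritic markers, at 378 CPM or more. Of the 8 positive cells, 6 lay among the 16 cells of community cluster #i7c, which stood at 109.8 CPM. The top cell gave 34.0% of the counts of #i7c, and the level without it was 77.9 CPM. The study names #i7c by dendritic cell markers. The rest of the group, #i2c, was at 21.8 CPM, of which 66.9% came from 1 of its 41 cells. Kupffer cells were at 0.61 CPM and B cells at 0.14 CPM.

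*Cdh2*, the adhesion protein of many mesenchymal cells, was high in hepatic stellate cells (HSC), the vitamin A storing cells of the space between sinusoid and hepatocyte, in venous SMC and in capsular HSC. HSC stood at 334 CPM in 69 male cells and 155 CPM in 4 female cells, and 35 of 73 (47.9%) were positive. Venous SMC were at 263 CPM in male cells and 200 CPM in female cells, and capsular HSC at 145 and 224 CPM. The pool values of these 3 groups overlapped, so their order is not settled. Second layer cells, the group annotated SLC, stood at 129 and 84.1 CPM, below the other 3 groups in both pools. Single cells weighed on the small female pools, since without their highest cell HSC were at 78.3 CPM and second layer cells at 37.7 CPM. Arterial SMC were at 4.52 CPM, with 2 of 237 cells positive, whereas 46 of 111 venous SMC were positive. Over plates with at least 5 cells, venous SMC ranged from 87.7 to 660 CPM with a median of 374, over 7 plates. HSC ranged from 16.8 to 422 CPM with a median of 254 over 5 plates, and capsular HSC from 11.3 to 352 CPM with a median of 151 over 7 plates, so the ranges overlapped.

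Parenchymal cells also held *Cdh2*, in few cells at a time. Hepatocytes stood at 26.5 CPM, with 12 of 203 cells positive, and cholangiocytes at 15.3 CPM, with 11 of 194 positive. Positive hepatocytes held between 152 and 2777 CPM, with a median of 342, and lay on 2 plates. The log2 ratio of cholangiocytes to hepatocytes was −0.78, and it was 0.77 when plates with at least 5 cells were averaged instead, so no direction can be given. Among hepatocyte clusters the 23 cells of #p3 had the highest share of positive cells, 5 of 23.

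*Cdh3* was high in some mural clusters and low in others. Mural cells are the smooth muscle and other cells that wrap vessels, and 4 community clusters of them are set here beside #m5c, the second layer cells. Large-vein SMC of #m15c stood at 622 CPM in 7 male cells and 246 CPM in 26 female cells, and 18 of the 33 cells (54.5%) were positive. In venous SMC of #m8c, which the study places at the portal vein, the level was 141 CPM in male cells and 130 CPM in female cells. Venous SMC of #m9c were at 159 and 123 CPM. Without its highest cell the female pool of #m8c was at 74.5 CPM. Arterial SMC of #m2c were at 11.4 and 16.1 CPM, and 1 cell gave 83.6% of the male counts. Second layer cells of #m5c were the lowest over both pools together (7.94 CPM), at 11.6 and 0.66 CPM, and 1 cell gave 61.7% of their counts. In order, #m15c lay above the other 4 clusters in both pools, #m8c and #m9c overlapped, and #m2c and #m5c lay below them in both pools.

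These groups held mural markers at different levels. All 6 mural markers were at 10 CPM or more in the 3 annotated SMC groups and in second layer cells. Their sum was 19290 CPM in arterial SMC, 17190 in large-vein SMC, 8703 in venous SMC and 1585 in second layer cells, in which the 4 fibroblast markers summed to 13308 CPM, against 873 to 6883 CPM in the SMC groups. The log2 ratio of *Cdh3* in #m15c to the other 4 of these clusters was 2.75, at 3.37 in male and 2.99 in female cells. For #m5c it was −3.30, at −3.02 and −5.90. With #m5c and #m15c summed against the other 3 clusters it was 0.75, but −0.11 in male and 1.75 in female cells. The pair joins the highest cluster with the one that was lowest over both pools together. It held 66 cells of #m5c and 7 of #m15c in the male pool, and 21 and 26 in the female pool.

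**Figure D2:**
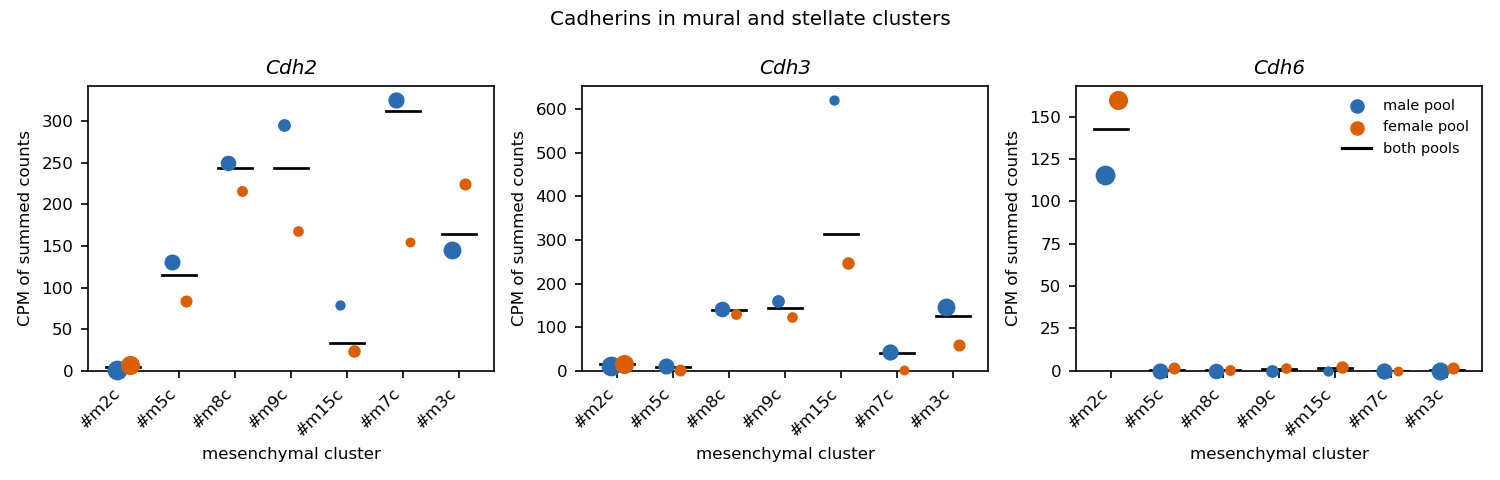
The panels give CPM of summed counts (vertical axis) by mesenchymal community cluster (horizontal axis) for male (blue) and female (orange) cells, with dot size growing with the number of cells up to a ceiling and a bar for both pools together. *Cdh3* peaks in #m15c in both pools, while *Cdh2* is high in venous SMC (#m8c and #m9c) and HSC (#m7c) and low in arterial SMC (#m2c), where *Cdh6* is high, and #m3c holds capsular HSC.

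Outside these clusters *Cdh3* reached capsular HSC, at 145 CPM in male cells and 59.4 CPM in female cells, and HSC, at 43.1 and 1.68 CPM. Without the highest cell of the pool, female capsular HSC were at 33.3 CPM and male HSC at 24.9 CPM. In cholangiocytes it stood at 102 and 201 CPM, the latter at 128 CPM without its highest cell, and 43 of 194 cells were positive. The 6 mesothelial cells were at 374 CPM, but 1 cell gave 79.3% of their counts and the level without it was 92.7 CPM. *Cdh2* and *Cdh3* were positive in 46 and 26 of 111 venous SMC, and 11 cells were positive for both. In capsular HSC 7 cells were positive for both, with 25 positive for *Cdh2* and 18 for *Cdh3*. Whether these overlaps differ from those of independent genes was not tested.

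Of the type II members, *Cdh6* had arterial SMC and cholangiocytes as its main places. Arterial SMC were at 116 CPM in 127 male cells and 158 CPM in 110 female cells, with 67 of 237 (28.3%) positive. Cholangiocytes were at 107 and 164 CPM, with 39 of 194 positive. The pool values of both groups overlapped. All other annotated groups were at 19.1 CPM or less, and venous SMC were at 0.36 CPM. *Cdh1* and *Cdh6* were both positive in 36 cholangiocytes, *Cdh1* and *Cdh3* also in 36, and *Cdh3* and *Cdh6* in 6. Such overlaps depend on how many of the 194 cells were positive for each gene, 131 for *Cdh1*, 43 for *Cdh3* and 39 for *Cdh6*. Whether they differ from those of independent genes was not tested. Of the 131 cholangiocytes positive for *Cdh1*, 95 were without *Cdh3* at that limit, and 95 without *Cdh6*.

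*Cdh11*, known from bone-forming and fibroblastic cells, was highest in peribiliary fibroblasts. They stood at 213 CPM in 89 male cells and 95.3 CPM in 9 female cells, and 33 of 98 (33.7%) were positive. *Wt1*+ fibroblasts were at 99.3 CPM in male cells and 8.06 CPM in female cells, below the peribiliary fibroblasts within each sex, and 1 cell gave 36.5% of their counts. Without the highest cell, female peribiliary fibroblasts were at 57.6 CPM and male *Wt1*+ fibroblasts at 62.5 CPM. Capsular HSC were at 52.5 and 17.3 CPM, with 89.4% of the female counts in 1 cell, and portal fibroblasts at 27.6 and 48.1 CPM. Over the 4 plates with at least 5 peribiliary fibroblasts, *Cdh11* was at 88.2 CPM in the lowest, 126 at the median and 257 in the highest. In HSC it was at 1.37 CPM.

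*Cdh13*, the lipid-anchored member, was highest in endothelial cells at the central end of the lobule. Last sinusoidal cells, those nearest the central vein, were at 1889 CPM in 34 male cells and 2004 CPM in 78 female cells, and 109 of 112 (97.3%) were positive. Central vein cells were at 1588 and 1915 CPM, and 229 of 302 were positive. Last sinusoidal cells were the higher of these groups within each sex, but the female central vein pool lay above the male last sinusoidal one, so their order is not settled. Portal vein cells were at 529 and 609 CPM and other sinusoidal cells at 289 and 397 CPM, each below the central groups in both pools. Lymphatic cells were at 84.2 and 509 CPM, and 1 of the 22 cells gave 58.1% of their counts, with 174 CPM for the others. Cells of the peribiliary vessel cluster #e5c were at 744 CPM in 5 male cells and 199 CPM in 9 female cells, and at 370 and 65.5 CPM without the highest cell of each pool. Among multilevel clusters #e5 was lowest over both pools together (159 CPM), at 139 and 272 CPM, and #e1 stood at 1793 and 2238 CPM. The log2 ratio of #e1 to the other endothelial clusters was 1.42, at 1.80 in male and 0.997 in female cells.

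*Cdh5* had another order among endothelial cells. Sinusoidal cells had 592 CPM of *Cdh5* in male and 573 CPM in female cells, above portal vein cells at 451 and 520 CPM and last sinusoidal cells at 453 and 464 CPM in both pools. Central vein cells were lower, at 306 and 265 CPM, and the 14 peribiliary vessel cells were lower still in both pools, at 135 and 225 CPM. Lymphatic cells had no settled place, at 1111 CPM in 9 male cells and 225 CPM in 13 female cells. Without the highest cell of the pool, female peribiliary vessel cells were at 142 CPM and lymphatic cells at 748 and 130 CPM. The central vein clusters #e1 and #e7 were at 281 and 295 CPM over both pools together, the lowest of the 8 multilevel clusters, and #e8 was the highest at 663 CPM. Per kilobase, *Cdh13* was above *Cdh5* in last sinusoidal cells (175 against 109) and in central vein cells (156 against 68.1). The order was the opposite in portal vein cells (50.8 against 116) and sinusoidal cells (27.4 against 140). In single cells, *Cdh13* was the leading member per kilobase in 65.9% of central vein and 72.3% of last sinusoidal cells, and *Cdh5* in 78.4% of sinusoidal cells. Both genes were positive in 99 of 112 last sinusoidal cells and in 157 of 542 sinusoidal cells.

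**Figure D3:**
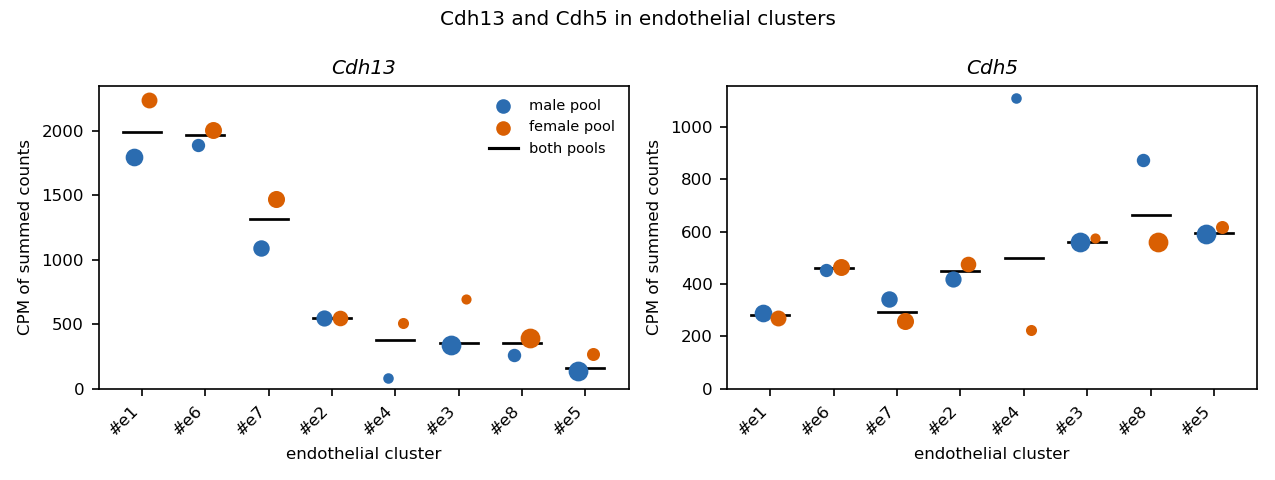
The panels give CPM of summed counts (vertical axis) of *Cdh13* and *Cdh5* in the endothelial clusters (horizontal axis), for male (blue) and female (orange) cells, with dot size growing with the number of cells up to a ceiling and a bar for both pools together. By the bars, *Cdh13* is at 1989 CPM in #e1 and 1968 CPM in #e6 and lowest in #e5, while *Cdh5* is lowest in #e1 and #e7.

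*Cdh13* also appeared in mesenchymal groups, at 126 CPM in portal fibroblasts, 115 CPM in second layer cells, 92.8 CPM in *Wt1*+ fibroblasts and 88.0 CPM in arterial SMC. In the male and female pool, portal fibroblasts were at 127 and 123 CPM, second layer cells at 100.1 and 145 CPM and arterial SMC at 111 and 73.5 CPM. *Wt1*+ fibroblasts were at 124 and 40.8 CPM, and their clusters stood apart, #m11c at 172 CPM and #m12c at 15.5 CPM. Portal fibroblasts lay above arterial SMC and *Wt1*+ fibroblasts within each sex, though by little over the latter in male cells, and the other pairs of these groups changed order between the sexes. The female values of second layer cells and *Wt1*+ fibroblasts fell to 89.6 and 20.8 CPM without the highest cell. Within portal fibroblasts, the 9 cells of cluster #m14c stood at 267 CPM of *Cdh13* and 62.3 CPM of *Cdh5*, and at 102 and 37.0 CPM without the highest cell for each gene. All 10 endothelial markers were at 156 CPM or more in these 9 cells, with 7555 CPM for their sum. The part of the markers in these values was not tested.

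Kupffer cells, the resident macrophages of the sinusoid, held the endothelial gene *Cdh5*. The 469 cells annotated as Kupffer cells stood at 221 CPM in 115 male cells and 330 CPM in 354 female cells, and 319 (68.0%) were positive. Their pool values enclosed those of central vein cells and lay below those of sinusoidal cells. In the 528 cells of the multilevel Kupffer clusters the single-cell level ranged from 0 to 4609 CPM with a median of 194, and 36 cells were at 0. The cell at 4609 CPM belonged to #i9c, a cluster annotated Cont that the study left out of its Kupffer group, and the highest annotated Kupffer cell was at 2450 CPM. Of the 528 cells 172 (32.6%) lay above 333 CPM, the median of all 1106 endothelial cells. The spread was wide in either pool. The 134 male cells had a median of 26.8 CPM and 38.1% were positive, while the 394 female cells had a median of 268 CPM and 76.9% were positive. The male upper quartile, 182 CPM, lay below the female median. The ranges overlapped, since male cells reached 2450 CPM and 5 female cells were at 0.

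Other cells were taken as a background for that share. A count of *Cdh5* was found in 29 of 57 B cells (50.9%, 95% exact interval 37.3 to 64.4) and in 440 of 469 Kupffer cells (93.8%, 91.2 to 95.8), at median depths of 269490 and 241657 counts. With cells thinned to 50000 counts, and those with fewer left out, the shares were 14.04% and 85.7%. B cells never exceeded 20.7 CPM, and 0 of 57 reached 20 counts, which allows a share of up to 5.26%. Monocytes had a median of 3.37 CPM, with 6 of 57 cells positive. B cells were all from male mice, so they give no background for female cells. Of 37 female cholangiocytes 81.1% had a count of *Cdh5*, or 47.2% after thinning, and 0 reached 20 counts. Of 157 male cholangiocytes 7.01% had a count, or 3.21% after thinning.

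Kupffer clusters differed in *Cdh5*, and so did their sexes and plates. Cluster #i1c, with 102 of its 111 cells from male mice, had a median of 28.0 CPM, at 25.1 in male and 36.9 in its 9 female cells. The mostly female clusters #i3c, #i8c, #i10c and #i11c had medians of 211, 288, 265 and 503 CPM. In #i3c the 9 male cells had a median of 35.4 CPM and the 73 female cells one of 238 CPM. Cluster, sex and plate cannot be told apart here, since 297 of the 394 female Kupffer cells were on 1 plate. Cells annotated sKC, #i4c, stood at 156 CPM over 18 cells, and the cells annotated as cycling, #i5c, at 234 CPM. The 9 cells of #i4c that lay in the multilevel Kupffer clusters were at 63.4 CPM.

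**Figure D4:**
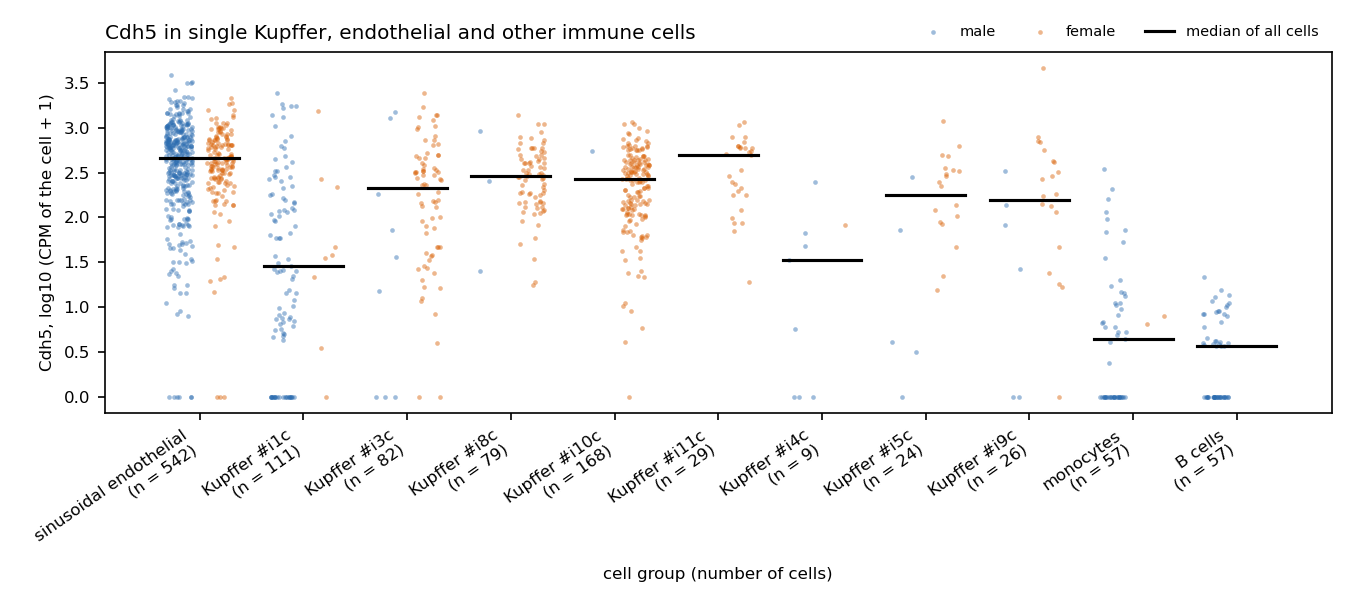
Each point is 1 cell, male in blue and female in orange, with *Cdh5* as log10 of the cell's CPM plus 1 on the vertical axis and cell groups on the horizontal axis, and the bar is the median of all cells of the group. Kupffer clusters #i3c, #i8c, #i10c and #i11c reach the range of sinusoidal endothelial cells, #i1c spreads from 0 to 2450 CPM around a median of 28.0, and B cells stay at or below 20.7 CPM.

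Markers of endothelial cells were measured beside *Cdh5* in the same Kupffer cells. In annotated Kupffer cells *Cdh5* was at 52.7% of its level in sinusoidal cells. *Pecam1* (CD31), which leukocytes also carry, and *Stab2*, a scavenger receptor of sinusoidal cells, were each at 11.2%. The other 8 of the 10 markers, *Tie1*, *Kdr*, *Ptprb*, *Esam*, *Cldn5*, *Egfl7*, *Emcn* and *Eng*, were between 0.325% and 1.72%. Their sum was 144 CPM in Kupffer and 14621 CPM in sinusoidal cells, or 0.984%. In the 48 annotated Kupffer cells without a single count of these 8 genes *Cdh5* stood at 309 CPM, with a median of 274, and 39 of the 48 were positive. No Kupffer cell was free of all 10 markers.

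*Cdh5* was then set against the sum of all 10 markers in each cell. The 3 multilevel Kupffer cells with under 10 CPM of that sum stood at 444 CPM of *Cdh5*, the 70 cells with 10 to 100 CPM at 239 CPM, the 335 cells with 100 to 1000 CPM at 299 CPM, and the 120 cells with more at 326 CPM. Of those 120, 25 were from the cluster annotated Cont, #i9c, in which the markers summed to 7550 CPM and *Cdh5* was at 248 CPM. In the other direction, the 8 Kupffer markers summed to 237 CPM in sinusoidal cells, against 18918 CPM in Kupffer cells.

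**Figure D5:**
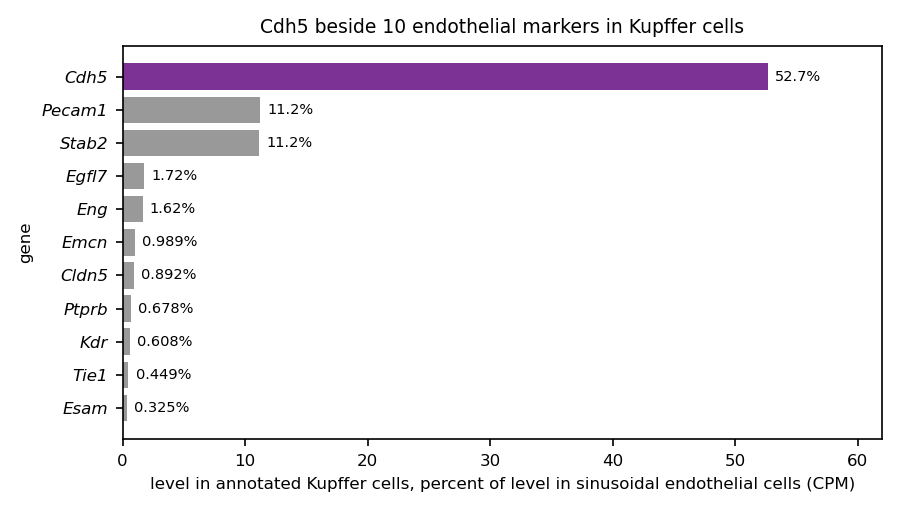
The bars give the level in annotated Kupffer cells as a percentage of the level in sinusoidal endothelial cells (horizontal axis, from CPM of summed counts) for *Cdh5* and 10 endothelial markers (vertical axis). *Cdh5* is at 52.7%, *Pecam1* and *Stab2* are at 11.2%, and the other 8 are at 1.72% or less.

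The level of Kupffer cells relative to endothelial cells was also taken within plates. Over all plates the log2 ratio of multilevel Kupffer to endothelial cells was −0.65, at −1.41 in male and −0.33 in female cells. On the 6 plates that held at least 5 cells of both, Kupffer cells were lower on 5, and the log2 ratio ran from −2.51 to 0.34 with a median of −0.996. The Kupffer level was at 326 and 368 CPM on the 2 female plates and at 88.1, 160, 313 and 411 CPM on the 4 male plates. The male plate at 411 CPM held 7 Kupffer cells. Without it both female plates lay above all male plates, and with it they lay inside the male range, so the plates give no settled order of the sexes.

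Cells differed in how many members they held. No member was positive in 92.1% of hepatocytes and in 98.2% of B cells. The leading member per kilobase was *Cdh1* in 63.9% of cholangiocytes, *Cdh2* in 45.2% of HSC and 35.1% of venous SMC, and *Cdh3* in 55.9% of large-vein SMC. *Cdh6* led in 25.7% of arterial SMC, *Cdh11* in 30.6% of peribiliary fibroblasts and *Cdh5* in 68.0% of Kupffer cells. Of 15 other genes with a cadherin symbol, 8 stayed below 1 CPM in every annotated group. *Cdh4*, retinal cadherin, reached 74.6 CPM in portal vein cells, where 27 of 114 cells had a count.

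For each member the 3 genes with the most similar pattern were found over the 30 multilevel clusters, by Pearson's r of log2(CPM + 1) among 16586 genes. The clusters share libraries and were built on these genes, so r is a description. *Cdh1* was followed most closely by *Epcam*, the sort antigen of cholangiocytes (r = 0.93), *Spint1* (0.93) and *Ap1m2* (0.90). *Cdh5* went with *Mrc1* (0.97) and *Stab1* (0.95), scavenger receptors of sinusoidal cells and macrophages, and with *Adipor1* (0.93). For *Cdh13* they were *Csgalnact1* (0.91), *Sox7*, an endothelial transcription factor (0.90), and *Jam2*, a junction protein (0.89). *Cdh2* went with *Agtr1a*, the angiotensin receptor (0.89), *Arhgap42* (0.88) and *Oaf* (0.86). *Cdh6* went with *Tesc* (0.97), *Wnk2* (0.95) and *Prdm16os* (0.93), and *Cdh11* with *Mir7025* (0.94), *Dnm1* (0.92) and *Omd* (0.91). *Cdh3* had weaker likeness, with *2900005J15Rik* (0.87), *Tnfrsf11b* (0.84) and *Thsd4* (0.82). The genes nearest to *Cdh17* (*RP23.23C9.4*, *Gm37334* and *Gm37474*) followed a member at or below 0.33 CPM and are not read further. Of these 24 pairs, 10 were also among the first 3 by Spearman's rho and 14 over sums per cluster and pool.

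The partners of cadherins were followed in the same 4 classes, each tested against the mean of the other 3 classes over the 8 pools. A gene was called at an adjusted p under 0.05 and an absolute log2 fold change of at least 1 in the quasi-likelihood test of edgeR, with p-values adjusted by Benjamini-Hochberg over 24046 genes. The classes were defined on the same transcriptomes, and the labels do not say which mice gave which cells, so these p-values measure only the spread between pools. Of 37 partner genes 36 were tested. Among all genes 9.47% were called higher and 2.33% lower in mesenchymal cells, 5.33% and 2.96% in endothelial cells, 7.92% and 5.25% in immune cells, and 8.37% and 4.05% in epithelial cells. The members' own class contrasts repeat what chose them and are not given.

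Of the core catenins, none of *Ctnnb1* (β-catenin), *Ctnnd1* (p120), *Ctnna1* (α-catenin) and *Jup* (plakoglobin) was called in any class. *Ctnnb1* ranged from 224 CPM in female immune cells to 802 CPM in female epithelial cells, and *Ctnna1* from 189 CPM in male immune to 704 CPM in female epithelial cells. *Ctnnd1* lay between 68.1 and 328 CPM and *Jup* between 135 and 683 CPM over the 8 pools. The largest estimate of *Ctnnb1* was a log2 fold change of −1.07 ± 0.34 (SE) in immune cells, with a Benjamini-Hochberg adjusted p of 0.079 in that edgeR test. For *Ctnnd1* it was −1.54 ± 0.50 in mesenchymal cells, with an adjusted p of 0.096 in the same edgeR test. These members missed the threshold, which does not show that they were equal.

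Mesenchymal cells had 3 of 17 catenins and adherens junction partners higher and 0 lower. *Arvcf*, a p120 relative, was at 499 and 417 CPM there and at 95.9 CPM or less elsewhere (log2 fold change 4.97 ± 0.59). *Ctnna3*, an α-catenin of cardiac and other muscle, was at 17.3 and 42.2 CPM against 2.75 or less (4.26 ± 0.71). The list's median was −0.53, against 0.02 over all genes. Of the 6 repressors of *Cdh1*, 4 were higher in mesenchymal cells and 0 lower, with a list median of 3.48. *Snai1* stood at 166 and 140 CPM (5.11 ± 0.79) and *Snai2* at 80.3 and 69.9 CPM (4.998 ± 0.56), and both were lower elsewhere, at up to 60.1 and 26.1 CPM. *Twist2* was higher too, at 19.3 and 25.3 CPM (7.32 ± 1.07). Desmosomal genes counted 1 higher and 1 lower of 5 tested, with a list median of −2.74. The higher one was *Pkp2*, a desmosomal plakophilin, at 13.8 and 25.8 CPM (3.31 ± 0.82). Epithelial pools held up to 83.7 CPM of *Pkp2*, since the fold is against a mean on the log scale. Among 8 sheddases and signalling partners 0 were higher and 1 was lower.

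In endothelial cells 1 of the 17 junction partners was higher and 2 were lower. *Ptprb* (VE-PTP), the phosphatase that binds VE-cadherin, was at 3717 and 3364 CPM against 69.4 or less in the other pools (6.47 ± 0.46). Of the sheddases and signalling partners 2 were higher and 1 lower, and the lower one was *Src*, a kinase of junction proteins, at 1.31 and 2.87 CPM (−3.97 ± 0.82). *Arvcf* was at 4.93 and 4.43 CPM (−3.99 ± 0.83), with male immune cells as low at 3.01 CPM. *Nectin4* was at 0.13 CPM or less (−5.49 ± 1.37), as it was in female mesenchymal cells. Repressors of *Cdh1* counted 3 higher and 1 lower. *Twist1* was higher, at 15.7 and 5.32 CPM (4.94 ± 1.03). *Twist2* was lower, at 0.01 and 0 CPM (−8.15 ± 1.79), with immune cells also low at 0.04 and 0.15 CPM. Of 5 desmosomal genes tested 0 were higher and 1 was lower.

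Immune cells had 2 junction partners higher and 4 lower. *Tjp1* (ZO-1), a scaffold of junctions, was at 1.59 and 7.03 CPM against 34.4 or more elsewhere (−4.26 ± 0.82), and *Nectin1* was at 0.31 and 0.09 CPM (−4.72 ± 1.22). *Nectin4* was higher than the mean of the other classes, at 10.1 and 18.1 CPM (4.13 ± 0.88), although male and female epithelial cells held 5.52 and 38.4 CPM. Of the repressors 1 was higher and 3 were lower, *Snai1* among the latter at 0.26 and 1.04 CPM (−5.31 ± 1.19), with male epithelial cells at 0.48 CPM. Sheddases and signalling partners counted 2 higher and 1 lower. Desmosomal genes counted 0 higher and 2 lower, *Pkp2* at 0.04 CPM or less (−8.99 ± 1.52) and *Dsg2* at 0.47 and 0.49 CPM (−3.95 ± 0.45), with endothelial cells nearly as low at 0.53 and 0.61 CPM.

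Epithelial cells had all 5 tested desmosomal genes higher, with a list median of 8.75 against −0.27 over all genes. Desmosomes are the adhesion plaques built of desmosomal cadherins and plakins. *Dsg2*, a desmosomal cadherin, was at 463 and 708 CPM against 2.10 or less (9.504 ± 0.37). *Dsc2* was at 62.9 and 33.3 CPM against 0.04 or less (11.73 ± 1.12), and *Dsp*, desmoplakin, at 107 and 179 CPM against 2.88 or less (8.75 ± 1.27). *Pkp3* was at 65.6 and 131 CPM (6.31 ± 1.66), although male immune cells held 32.0 CPM. *Pkp2* was at 83.7 and 69.5 CPM (5.84 ± 0.85). *Ctnnd2*, a p120 relative, was at 12.6 and 43.4 CPM (7.32 ± 1.41). Junction partners counted 4 higher and 0 lower, the repressors 1 higher and 3 lower, and the sheddases and signalling partners 1 higher and 2 lower.

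Female and male pools were compared with the class as a covariate, which the choice of members did not use. In this comparison 0 of the 8 members were called at an adjusted p under 0.05, against 0.0208% of 24046 genes (0.00832% higher and 0.0125% lower in female pools) by edgeR's quasi-likelihood test and Benjamini-Hochberg adjustment. At an unadjusted p under 0.05, 1905 genes passed. *Cdh6* had the largest estimate, 2.79 ± 0.77 (SE) on the log2 scale, with an adjusted p of 0.60 in this edgeR test and of 0.0085 by the Wald test of DESeq2, where the estimate was 3.03. *Cdh11* was at −0.98 ± 0.57 with an adjusted p of 0.72 in the edgeR test, and *Cdh5* at 0.96 ± 0.37 with one of 0.61 in that edgeR test. The median of all genes was −0.11. With 1 pool per class and sex, a member that missed the threshold is not shown to be equal in the sexes.

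The makeup of the pools moved with these values. *Cdh6* was at 11.5 CPM in male cells and 49.0 CPM in female mesenchymal cells, and arterial SMC made up 12.7% of the male and 32.4% of the female cells of that class. Within arterial SMC the levels were 116 and 158 CPM. In epithelial cells, at 65.6 and 160 CPM of *Cdh6*, cholangiocytes made up 43.9% of male and 94.9% of female cells, and within cholangiocytes the levels were 107 and 164 CPM. *Cdh13* was at 726 and 1347 CPM in endothelial cells. Last sinusoidal cells were 5.19% of male and 17.3% of female cells there, and within them the levels were 1889 and 2004 CPM. *Cdh5* in immune cells was at 110 and 327 CPM, with Kupffer cells at 45.1% of male and 89.4% of female cells. Sex, plate and makeup of the sorted cells cannot be told apart.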

How the data were processed

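The members and all gene lists were chosen with earlier results of these data known. Single cells were sequenced by Smart-seq2, and the authors demultiplexed and mapped the reads and counted them per gene and cell. The deposited values are raw counts without normalization. The submitters' processing notes name bcl2fastq, Bowtie, Bowtie2, Subread featureCounts and Seurat with GRCm38 and mm10. Low-quality cells and cells with clear signs of contamination were removed by the authors before deposit, through an upper limit on genes for doublets among others. The 26 cells annotated Cont remained among the deposited cells. No doublet caller was run here. Cell classes, annotation and pagoda2 clusters (multilevel, and community with names ending in c) are the authors' own, made on the same cells.

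The 92 spike-ins were left out. Counts were summed over the cells of each group and pool and given as CPM, with exon lengths and positions from GENCODE vM21 on GRCm38. Log2 ratios used a pseudocount of 0.5 CPM. Sums of the 8 pools were tested with edgeR 4.0.16 (filterByExpr, TMM, quasi-likelihood), and DESeq2 1.42.0 was an alternative, in R 4.3.3. Levels were computed in Python 3.11.15. The tests were checked on simulated counts, in which the comparison of the sexes missed most changed genes at every simulated fold. The contrast of the endothelial class missed most of them at every simulated fold but the largest. Named genes were the 8 members, the 3 most similar genes of each that reached 10 CPM in a cluster, the 4 core catenins, and up to 6 called partners of a class by absolute log2 fold change. The pools ranged from 39 to 998 cells, and the smallest, female epithelial cells, held 6399550 counts.

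Alternatives were other size factors, DESeq2, no filter on low counts, cells thinned to 50000 counts, sums per plate, each pool left out in turn and, chosen after seeing the data, *Cdh5* within plates. The labels did not name the mice. Female deviations of the classes correlated at 0.0864 to 0.110 over 24046 genes.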

Additional observations from a re-analysis of the deposited data

Results flagged for a closer look

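Among classes in which a member reached 10 CPM in at least 1 pool, the female to male log2 ratio of 4 members pointed in opposite directions in different classes, with 1 pool of each sex per class, and these differences were not tested. *Cdh1* was at 1.04 in epithelial and −3.58 in immune cells. Cholangiocytes were 43.9% of male and 94.9% of female epithelial cells, and within them the ratio was 0.37. Monocytes, with all 8 immune cells positive for *Cdh1*, were 21.6% of male and 0.51% of female immune cells. *Cdh3* was at 1.64 in epithelial and −0.19 in mesenchymal cells. *Cdh5* was at 1.305 in epithelial, −0.30 in endothelial and 1.56 in immune cells, although epithelial cells held 5.33 and 13.9 CPM. *Cdh13* was at 0.89 in endothelial, −1.90 in immune and −0.081 in mesenchymal cells, but 1 male cell annotated as cycling gave 57.1% of the male immune counts, and without it the male immune pool fell from 15.3 to 6.58 CPM, under that floor. No group of pools was large enough to look for a single pool far from the others.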

How the results depend on the processing

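The log2 ratios of *Cdh5* (Kupffer over endothelial cells) and *Cdh13* (#e1 over the other endothelial clusters) kept their direction under every alternative run, from −1.30 to −0.46 and from 0.997 to 1.80 when 1 pool was left out, although 1 of the 6 plates with both cell types had *Cdh5* higher in Kupffer cells (0.34). For *Cdh3* in #m5c and #m15c the ratio ran from −0.11 without the female to 1.75 without the male mesenchymal pool. The ratio of *Cdh1* in cholangiocytes over hepatocytes was 7.35 as a mean over cells, 7.11 with thinned cells, 5.84 with a pseudocount of 5 CPM, 4.90 as a mean over plates and 6.58 without the female pool. For *Cdh2* these were −1.22, −1.28, −0.64, 0.77 and −0.80. Without the male pool neither could be given, since 2 female hepatocytes remained, and no Kupffer cell had 0 counts of all 10 endothelial markers. Without a filter on low counts 4761, 4210, 5507 and 5066 genes were called in mesenchymal, endothelial, immune and epithelial cells, against 2838, 1992, 3167 and 2987, and partner genes numbered 19 and 18 in the first 2 classes, against 10 and 11. The Wald test of DESeq2 called 4292, 4497, 5655 and 5601 genes, with 19 and 17 partner genes there. Sums per plate called 3492 genes in endothelial cells.

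With 1 pool left out the calls ran from 1528 to 2710 (mesenchymal), 606 to 1894 (endothelial), 1847 to 3096 (immune) and 1933 to 2852 genes (epithelial), and partner genes from 5 to 12, 2 to 13, 8 to 16 and 9 to 14. The pools that moved these counts by over 1.5 times were mostly those of the class itself, for endothelial calls both mesenchymal pools too, and for epithelial partner genes both endothelial pools. A lone pool was then assumed to vary like the others. Between the sexes 5 genes were called, 57 by sums per plate, 596 by DESeq2 and 0 to 6 with 1 pool left out. The estimates of *Cdh1* turned to 0.071 with RLE size factors, 1.87 by plate, 0.11 by DESeq2 and 0.81 without the block, and that of *Cdh13* to −0.42 by plate. With 1 pool left out they ran from −0.98 to 1.05 for *Cdh1*, −0.43 to 0.71 for *Cdh13*, −1.47 to 0.45 for *Cdh2* and −0.074 to 0.59 for *Cdh17*. The cause was not tested. Male and female pools share only a sex label: with the sex as a replicate block 2707, 1964, 3045 and 2728 genes were called, and without the class as a block the sexes differed in 3 genes.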
